A study of Mus musculus with 16 samples.

Results

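The effect of the Nan allele of Klf1 on whole fetal liver was measured as the polyadenylated RNA of Nan/+ livers against that of wild-type livers, over all 793 genes of the authors' deposited liver table. For each gene the log2 ratio of the Nan/+ level over the wild-type level was computed, after levels under 0.1 were raised to 0.1. The levels are FPKM, fragments per kilobase of transcript corrected for the size of each library, and the authors gave 1 FPKM per genotype. The series holds 16 mouse samples, of which 6 are these livers; the others are chromatin and newly made RNA of an immortalized erythroblast line. Wild-type livers (Klf1 +/+, 3 samples) and Nan/+ livers (heterozygous for the Nan allele, 3 samples) were collected at embryonic day 14.5, received no treatment and were dispersed to single cells without sorting. Strain, sex and litter are not given. The authors' q values refer to these samples only, and how spread between samples entered them is not given. Globin RNA was removed from every sample before sequencing. Since the table holds 1 value per genotype, no level below has a standard deviation, and no test of its own was possible.

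KLF1 is a zinc finger transcription factor of red cell precursors that binds CACCC-type elements and switches on genes of globin, heme, iron, membrane and cell cycle control. The Nan allele changes an amino acid in a DNA-contacting zinc finger, so that the mutant protein prefers altered sites, and Nan/+ mice are anemic. At this stage the fetal liver is the main site of definitive red cell production, and it also holds macrophages, granulocytes, megakaryocytes, hepatoblasts, endothelium and stroma. In such bulk RNA, fewer cells of a type and less RNA per cell cannot be told apart.

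The table lists called genes only. Per the authors' deposited table every q was at most 0.0498, and the smallest size of the log2 ratio was 1.00, so each gene differed by at least 2-fold. Of the 793 genes, 598 (75.4%) were higher in Nan/+ and 195 (24.6%) were lower. Those 2 shares are the background for every count below, and a list described only by called genes cannot show how its other members behaved. Genes with no row, Klf1, Gata1, Alb and Afp among them, were not analysed here. Depth is unknown because no counts were used.

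Rises and falls differed in level and less in size. Among genes higher in Nan/+ the median level was 10.8 FPKM in wild type and 30.2 FPKM in Nan/+, a median 2.58-fold. Among genes lower in Nan/+ it was 6.02 FPKM in wild type and 2.10 FPKM in Nan/+, a median 2.49-fold. Changes of at least 4-fold made up 117 of the rises (19.6%) and 45 of the falls (23.1%). At the top of the range, 144 genes that rose reached 100 FPKM in Nan/+, and 9 genes that fell had been at 100 FPKM in wild type. In the plot of the level of each gene in both genotypes, the falls at high levels are few, with Slc25a37 and Mgst3 at the top.

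**Figure D1:**
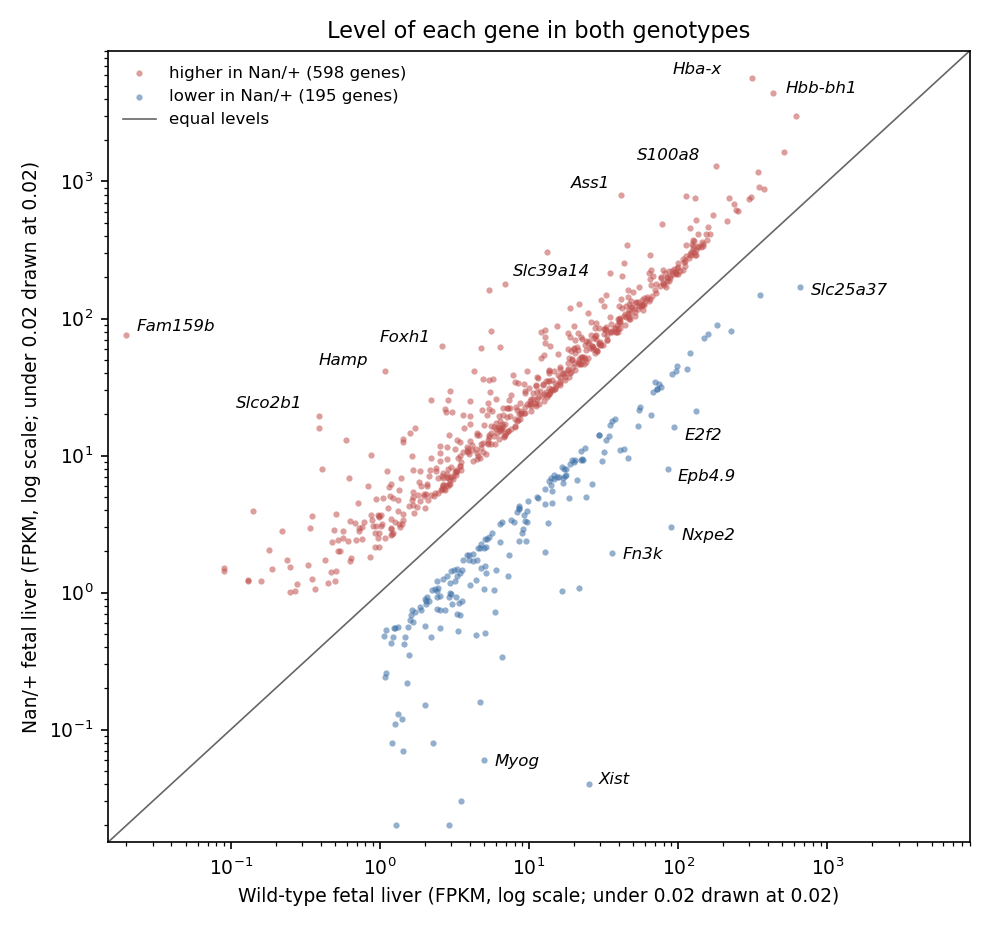
Each point is 1 of the 793 genes, with its wild-type FPKM on the x axis and its Nan/+ FPKM on the y axis, both on log scales, coloured by direction; levels under 0.02 are drawn at 0.02. The 598 genes above the diagonal reach higher levels than the 195 below it, where Slc25a37 is the most abundant.

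The direction of a gene went with the length of its locus and with its level. Loci of genes that rose had a median length of 7344 bp, and those of genes that fell 28736 bp. In 5 equal bins of length, the share of genes higher in Nan/+ was 91.8% among the shortest loci (334 to 3189 bp), 90.5%, 80.5% and 67.7% in the middle bins, and 46.5% among the longest (37646 to 567401 bp). By level in the genotype where the gene was higher, the share was 46.6% under 3 FPKM, 63.4% from 3 to 10, 77.7% from 10 to 30, 85.2% from 30 to 100 and 94.1% from 100 FPKM up. Both gradients ran in 1 direction over all 5 bins. Their part in the lists below was not tested. Median locus lengths are given beside the interferon, granulocyte, stefin, macrophage, hepatocyte, mitochondrial, muscle, mesenchyme and unnamed groups.

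**Figure D2:**
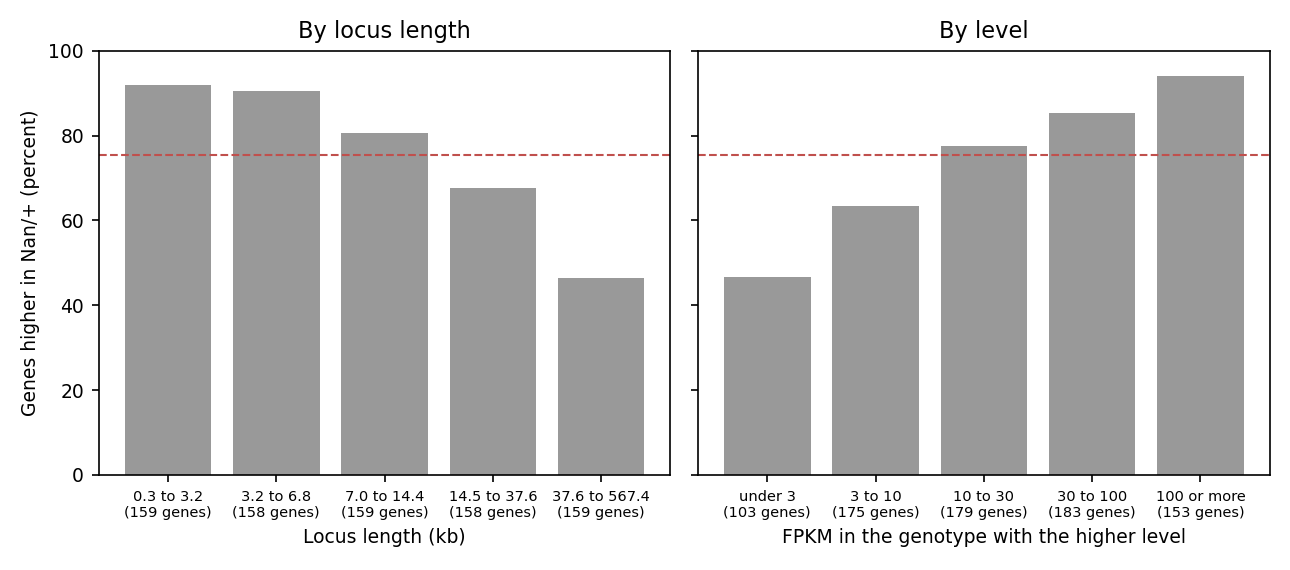
Bars give the percent of genes higher in Nan/+ in 5 bins of locus length (left, kb) and 5 bins of the FPKM of the genotype with the higher level (right); the dashed line marks the 75.4% of all genes. The share falls from 91.8% to 46.5% with length and climbs from 46.6% to 94.1% with level.

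Genes of the red cell programme that fell are described first. From a list of 64 genes of the red cell membrane, cytoskeleton and surface, 7 had a row, 3 higher and 4 lower, with a median log2 ratio of -1.21 against 1.24 over the whole table. Epb4.9, which encodes the actin-bundling skeletal protein dematin, fell from 84.8 to 7.98 FPKM, a log2 ratio of -3.41. Aqp3, a channel for water and glycerol, fell from 12.8 to 1.97 FPKM (-2.70). Slc43a1, a transporter of large neutral amino acids, fell from 91.1 to 39.5 FPKM, and Slc2a4, the insulin-responsive glucose carrier GLUT4, from 7.28 to 1.33 FPKM. Water channels did not move together, since Aqp1, which makes the Colton antigen of red cells, rose from 45.7 to 145 FPKM and Aqp8 from 2.39 to 8.08 FPKM. The third riser was Epb4.1l1, a relative of protein 4.1, from 3.45 to 8.38 FPKM. Spectrins, ankyrin, band 3 and glycophorins had no row.

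Called heme and iron genes moved in both directions. From 39 genes of iron uptake, storage and the hepcidin axis, 7 had a row, 4 higher and 3 lower. Slc25a37, or mitoferrin, which carries iron into the mitochondria of erythroblasts, was the most abundant gene that fell, from 655 to 170.5 FPKM (-1.94). Steap3, the ferrireductase of the transferrin cycle in erythroblasts, fell from 72.1 to 30.7 FPKM. Fam132b, which encodes erythroferrone, the erythroblast hormone that lowers hepcidin, fell from 4.99 to 1.06 FPKM (-2.23). These are the 3 falls of the list, and the cells in which each gene changed cannot be told from bulk liver. In the opposite direction, Hamp, the hepcidin gene itself, was at 1.08 FPKM in wild type and 41.5 FPKM in Nan/+, and Id1, a target of BMP signalling that moves with hepcidin in adult liver, rose from 18.4 to 43.1 FPKM. Slc39a14, an importer of zinc and of iron that is not bound to transferrin, rose from 6.85 to 178 FPKM (4.70). The fourth riser was Slc11a1, the metal pump of macrophage phagosomes, from 4.72 to 9.63 FPKM.

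From 24 genes of heme synthesis and breakdown, 3 had a row. Slc25a38, the glycine carrier of erythroid mitochondria, fell from 76.1 to 31.7 FPKM and Tspo2, an erythroid member of the translocator protein family, from 65.4 to 19.9 FPKM. Hmox1, heme oxygenase, which degrades heme, rose from 63.9 to 214 FPKM (1.74). None of the enzymes of the synthesis pathway on the list had a row.

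Among 34 erythroid transcription factors and cofactors, 3 fell and 3 rose. Lmo2, the bridge of the GATA1 and TAL1 complex, fell from 181 to 89.9 FPKM and Sox6, a repressor of embryonic globin, from 19.3 to 9.3 FPKM. Xpo7, a nuclear export receptor needed for chromatin condensation in erythroblasts, fell from 46.3 to 9.57 FPKM (-2.27). The other called genes rose. Gata2, a progenitor factor, rose from 3.19 to 7.52 FPKM, Sfpi1, which encodes the myeloid factor PU.1, from 14.8 to 33.8 FPKM, and Cbfa2t3, the corepressor ETO2 of erythroid and megakaryocytic cells, from 3.5 to 7.78 FPKM.

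All 3 called genes of 61 cell cycle and DNA replication genes fell. E2f2, an E2F factor of terminal erythroblast divisions, fell from 94.3 to 16.1 FPKM (-2.55), E2f4, the E2F of G0 and G1, from 159 to 77.6 FPKM, and Cdc25b, a phosphatase that opens mitosis, from 121 to 56 FPKM. Rgcc, a regulator of the cell cycle outside the list, fell from 131 to 21.1 FPKM (-2.64). Genes of late maturation gave 3 rises and 2 falls among 42. The falls were Xpo7, given above, and Pklr, the pyruvate kinase of red cells, from 227 to 81 FPKM. The rises were Pdzk1ip1, a small membrane protein, from 13.2 to 304 FPKM (4.52), Map1lc3a, an autophagy protein, from 9.4 to 22.8 FPKM, and Alox5, a lipoxygenase, from 0.97 to 2.52 FPKM. Gadd45g, a growth arrest gene, rose from 7.59 to 27.6 FPKM. Cish, a feedback inhibitor induced by erythropoietin through STAT5, rose from 6 to 25.8 FPKM, and Dusp1, a MAP kinase phosphatase, fell from 17.6 to 7.16 FPKM.

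Several of the strongest falls lay outside these lists. Nxpe2 fell from 89 to 3 FPKM (-4.89), and its neighbour Nxpe4 was also lower. Both fructosamine kinases, which remove sugar from glycated proteins and are strongly expressed in red cells, fell: Fn3k from 36.1 to 1.95 FPKM (-4.21) and Fn3krp from 43.5 to 11.2 FPKM. Dnaja4, a co-chaperone of the Hsp40 class, fell from 16.7 to 1.03 FPKM. The remaining high levels that fell were those of Mgst3, a microsomal glutathione transferase, from 354 to 149 FPKM, and Tnfrsf14, the receptor HVEM, from 148 to 72 FPKM. March8, a ubiquitin ligase that sends the transferrin receptor to lysosomes, fell from 68.1 to 29.2 FPKM, and Ache, acetylcholinesterase, which is anchored in the red cell membrane, from 17 to 6.27 FPKM.

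**Figure D3:**
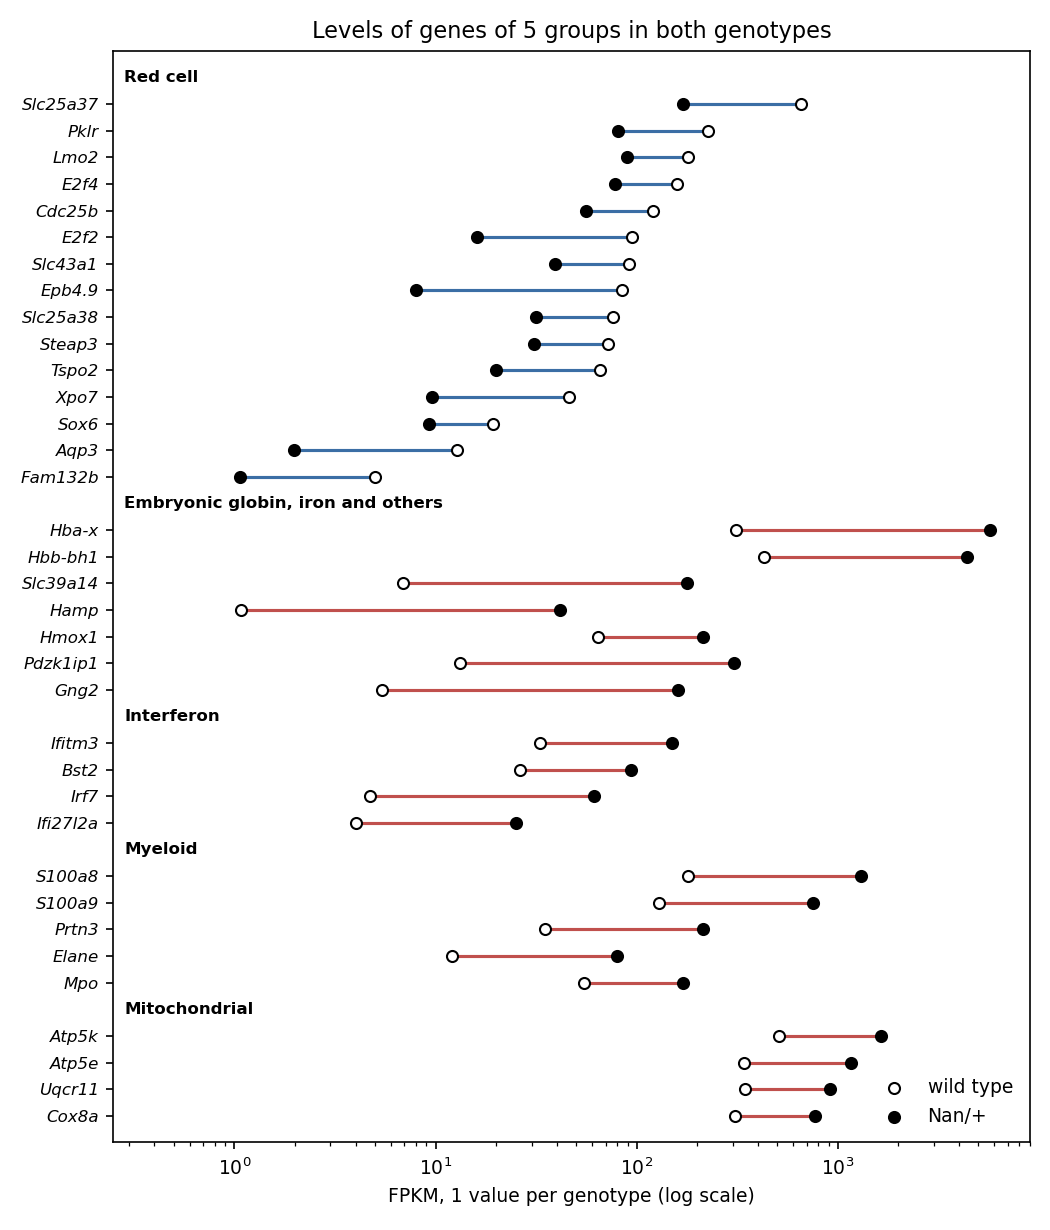
Open circles give the wild-type FPKM and filled circles the Nan/+ FPKM of genes from 5 groups on a log axis, with 1 value per genotype and no error. The red cell group shows 15 genes that fell and leaves out members of the same lists that rose, such as Aqp1 and Gata2; the genes shown in the other groups all rose.

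Upstream sequences are shown for 3 of the genes that fell and have a promoter peak in the ChIP-seq of KLF1, because they place the deposited central motif of that peak next to the gene start. They were picked after their values were seen, Aqp3 and Rgcc as the 2 steepest falls with such a match, and Cdc25b because it has peaks of both factors. The letters come from RefSeq (GRCm38.p6), 5′ to 3′ on the gene's strand, and capitals mark the central motif that the authors gave for the KLF1 peak, on either strand. Only the letters of the motif were matched, not a position given by the authors. Here and at the peaks shown further below, the copy nearest the peak summit, within 60 bases of it, is marked. Aqp3 is shown at chr4:41098189-41098276 on the minus strand, Rgcc at chr14:79301646-79301733 on the minus strand and Cdc25b at chr2:131186841-131186928 on the plus strand.
Aqp3: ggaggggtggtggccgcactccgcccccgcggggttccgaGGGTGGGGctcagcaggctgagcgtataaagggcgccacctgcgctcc
Rgcc: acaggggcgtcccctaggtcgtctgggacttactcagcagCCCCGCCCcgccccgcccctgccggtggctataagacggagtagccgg
Cdc25b: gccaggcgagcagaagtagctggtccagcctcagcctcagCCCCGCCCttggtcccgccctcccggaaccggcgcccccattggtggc
In Aqp3 the motif is the complement of the CACCC-type site CCCCACCC and starts 53 bp before the gene start. In Rgcc it is CCCCGCCC, which is also a GC box that other factors of the Sp and KLF family bind, and the marked copy starts 58 bp before the gene start. Further copies of the same letters overlap it on the side of the gene start, so which copy lies at the peak is not known. Cdc25b carries the same letters, starting 67 bp before the gene start. The Nan-KLF1 peak at Rgcc has the same central motif as its KLF1 peak, while that at Cdc25b has its own copy, on the reverse strand, starting 172 bp before the gene start.

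Among the called genes, embryonic globins had the highest levels in Nan/+ liver. Hba-x (zeta globin) stood at 310.2 FPKM in wild type and 5717 FPKM in Nan/+, and Hbb-bh1 at 429 and 4399 FPKM. They were the called members of a list of 17 globins and globin chaperones; adult globins had no row, and how far globin removal changed the embryonic globin levels was not tested. Next came Sod1, the cytosolic superoxide dismutase, which rose from 613 to 2989.8 FPKM (2.29).

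The steepest rises formed no single family. Fam159b reached 75.5 FPKM in Nan/+ and is listed at 0 in wild type, so no fold is given. Slco2b1, a carrier of organic anions, rose from 0.39 to 19.5 FPKM. It started from 0.39 FPKM, so its fold rests on a low base. Gng2, a G protein gamma subunit, rose from 5.39 to 161 FPKM. Foxh1, the partner of SMAD factors in nodal and activin signalling, rose from 2.6 to 63 FPKM, and its neighbour Kifc2, a kinesin whose locus ends 110 bp away, from 0.59 to 13 FPKM. Insl6, of the insulin and relaxin family, rose from 0.41 to 8.01 FPKM, and Klhl30 from 0.14 to 3.95 FPKM. Pfkfb4, which sets the level of the glycolytic activator fructose 2,6-bisphosphate, rose from 1.59 to 14.6 FPKM, and Mvp, the major vault protein, from 6.38 to 62.4 FPKM.

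Interferon-responsive genes were higher throughout. From a list of 90, 26 had a row and all 26 were higher, with a median log2 ratio of 1.85 beside 1.37 over all genes that rose. Their summed level went from 195.8 to 682 FPKM, and their median locus length was 5511 bp, in the bin where 90.5% of genes were higher. Irf7, the master factor of the type I interferon response, rose from 4.74 to 61.4 FPKM (3.69), the largest ratio of the list. Ifitm3, which blocks virus entry, rose from 33 to 149 FPKM, Bst2, which tethers budding virus, from 26.2 to 93.8 FPKM, and Ifi27l2a from 4 to 25.2 FPKM. Oas1a and Oas1g, close copies that reads may not separate, rose from 1.23 to 4.91 and 0.25 to 1.01 FPKM. Sensors and effectors at low levels rose as well, among them Cxcl10, a chemokine induced by interferon, from 3.82 to 10.8 FPKM, Zbp1 from 0.72 to 2.96 FPKM and Ifit1 from 1.13 to 4.11 FPKM. The 3 subunits of the immunoproteasome were also higher: Psmb8 went from 6.7 to 19.6 FPKM, Psmb9 from 3.98 to 10.2 FPKM and Psmb10 from 22.5 to 70.6 FPKM. H2-D1, a class I MHC heavy chain, rose from 28.6 to 58 FPKM; the locus is polymorphic between strains, and the effect of strain on its reads was not tested.

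The promoters of this list were searched for the core of interferon-stimulated elements, GAAANNGAA on either strand, in the 300 bases that RefSeq gives around each gene start. Of 18 genes with a promoter sequence, 9 (50%) held it, against 8.57% of all 27025 promoters, 11.1% of genes higher in Nan/+ and 5.30% of genes lower. The list holds genes already known to respond to interferon. A higher share can therefore follow from the choice of the list, and nothing about Nan/+ liver is read from it. The 3 genes of highest Nan/+ level with the element before their start are shown, with the element in capitals: Bst2 at chr8:71537548-71537636 on the minus strand, Cxcl10 at chr5:92349054-92349139 on the minus strand and Ifi44l at chr3:151762892-151762944 on the minus strand (GRCm38.p6).
Bst2: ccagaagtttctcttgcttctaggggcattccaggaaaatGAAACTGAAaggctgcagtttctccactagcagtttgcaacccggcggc
Cxcl10: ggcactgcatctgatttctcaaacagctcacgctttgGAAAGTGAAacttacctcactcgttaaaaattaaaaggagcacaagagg
Ifi44l: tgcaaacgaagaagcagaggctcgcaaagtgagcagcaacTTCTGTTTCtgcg
The element starts 124 bp before the gene start in Bst2, 213 bp before it in Cxcl10 and, on the reverse strand, 13 bp before it in Ifi44l. By the authors' gene names, 2 of the 26 genes had a KLF1 peak and none had a Nan-KLF1 peak. Among all genes higher in Nan/+, 21.2% had a KLF1 peak and 16.1% a Nan-KLF1 peak. Among those with loci shorter than the median of 10147 bp, the shares were 19.2% and 13.2%. The difference of the interferon list from these shares was not tested.

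Granulocyte genes had more rises than any other cell type marker list. Of 54 neutrophil granule and myeloid markers, 32 had a row and all 32 were higher, with a median log2 ratio of 2.11 and a summed level of 881 FPKM in wild type and 4797 FPKM in Nan/+. The median locus length of these genes was 5412 bp, in the same length bin. S100a8 and S100a9, the subunits of calprotectin, rose from 180.1 to 1299.8 and from 129.6 to 756 FPKM. Primary granule proteases rose, Elane (neutrophil elastase) from 12.1 to 79.4 FPKM, Prtn3 (proteinase 3) from 35 to 215 FPKM and Ctsg (cathepsin G) from 12.9 to 73 FPKM. Mpo, the myeloperoxidase of the same granules, rose from 54.7 to 171 FPKM. Secondary granule genes rose too, Camp (cathelicidin) from 21.6 to 127 FPKM, Lcn2 (lipocalin 2) from 9.7 to 41.3 FPKM, Ngp from 19.9 to 61 FPKM and Ltf (lactoferrin) from 6.86 to 16.9 FPKM. The transcription factors Cebpe and Gfi1, both needed for neutrophil maturation, went from 2.2 to 9.55 and from 0.61 to 2.37 FPKM. The other 22 markers had no row.

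Stefins of a cluster on chromosome 16, inhibitors of cysteine proteases that are abundant in mouse granulocytes, had 7 rows, all higher, with a median log2 ratio of 2.56. The group was picked by name after its values were seen, so its count supports nothing further. Cstb, or stefin B, is not in the group and rose less, from 51.5 to 104 FPKM. The median locus length of the 7 genes was 5138 bp, in the bin where 90.5% of genes were higher. Stfa1 rose from 113 to 784 FPKM, BC100530 from 78 to 490.5 FPKM and Gm5483 from 43.3 to 255 FPKM. These genes are near-identical copies in a cluster on chromosome 16, so the split of reads among them is uncertain, as it is for Lyz1 and Lyz2, which rose from 9.19 to 33.4 and 83.8 to 197 FPKM.

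Macrophage and monocyte markers followed the same direction at a smaller size. Of 47 markers 13 were called, all higher, with a median log2 ratio of 1.43 and a summed level of 104.2 to 272 FPKM. Their median locus length was 5876 bp, in the bin where 90.5% of genes were higher. Marco, a scavenger receptor, rose from 27.7 to 74.8 FPKM, C1qa, a complement chain of resident macrophages, from 29.9 to 63.6 FPKM, and Lgals3, galectin 3, from 8.01 to 34.5 FPKM. Spic, the factor of macrophages that recycle red cell iron, rose from 4.92 to 10.6 FPKM, and the chemokine Ccl6 from 3.64 to 15.9 FPKM. The defining macrophage genes Csf1r, Emr1, Vcam1 and Mertk had no row.

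Of 36 markers of mast cells, basophils and eosinophils, 10 rose and 2 fell, with a summed level of 91.9 to 261 FPKM. Eosinophil granule genes rose, Prg2 (major basic protein) from 41.3 to 138 FPKM, Prg3 from 2.51 to 11.8 FPKM and Epx (eosinophil peroxidase) from 2.06 to 6.22 FPKM. The basophil proteases Mcpt8 and Prss34 rose from 0.62 to 6.8 and from 0.19 to 1.48 FPKM, with low wild-type levels. The 2 falls were Il4, a cytokine of type 2 immunity, from 4.79 to 1.51 FPKM, and Il1rl1, the receptor of interleukin 33, from 3.41 to 0.84 FPKM. Thus members of 1 marker list moved in opposite directions. The receptor chain Il4ra rose from 2.93 to 29.5 FPKM (3.33).

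Of 47 markers of megakaryocytes and platelets, 4 rose and 1 fell, a share near that of the whole table. Pf4 (platelet factor 4) rose from 245 to 622 FPKM, Gng11 from 17.5 to 37.3 FPKM, Gp1bb, a chain of the von Willebrand factor receptor, from 5.36 to 13.7 FPKM, and Lat from 8.08 to 16.5 FPKM. Tubb1, the beta tubulin of platelets, fell from 55.2 to 22.5 FPKM. Lymphoid markers gave 3 rises among 52, at low levels: Nkg7 from 1.65 to 9.95 FPKM, Cd79b from 2.83 to 7.27 FPKM and Ltb from 1.86 to 4.66 FPKM. Of 38 stem and progenitor markers Gata2, Gfi1 and Cd48 were called, all higher, and the first 2 are also on other lists.

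Hepatocyte genes were higher where called. Of 85 markers 9 had a row, all higher, with a median log2 ratio of 1.80 and a summed level of 534 to 2372 FPKM. Their median locus length was 4760 bp, in the bin where 90.5% of genes were higher. Ass1, argininosuccinate synthase of the urea cycle and of arginine synthesis, rose most, from 41.3 to 802 FPKM (4.28). The clustered apolipoprotein genes Apoc2, Apoc4 and Apoc1 rose from 218 to 758, from 32 to 123 and from 158 to 464 FPKM. Igfbp1, a binding protein of insulin-like growth factors, rose from 35.6 to 90.4 FPKM, and Hp, haptoglobin, which clears free hemoglobin, from 7.78 to 38.5 FPKM. Hp is also on the granulocyte list. The defining genes Alb, Afp, Ttr and Apoa1 had no row, so the 9 genes describe a small share of the hepatocyte list, and the part of hepatocyte number in them was not tested. Without Ass1 the ratios of the list lay between 1.16 and 2.31.

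Endothelial markers gave 3 rises among 36, Fabp4 from 10.2 to 25 FPKM, Icam2 from 9.27 to 20.3 FPKM and Clec4g, a lectin of liver sinusoids, from 0.78 to 3.29 FPKM. Among 44 epithelial markers Spink3, a trypsin inhibitor, rose from 40.3 to 124 FPKM and Cela1 from 2.81 to 6.94 FPKM.

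**Figure D4:**
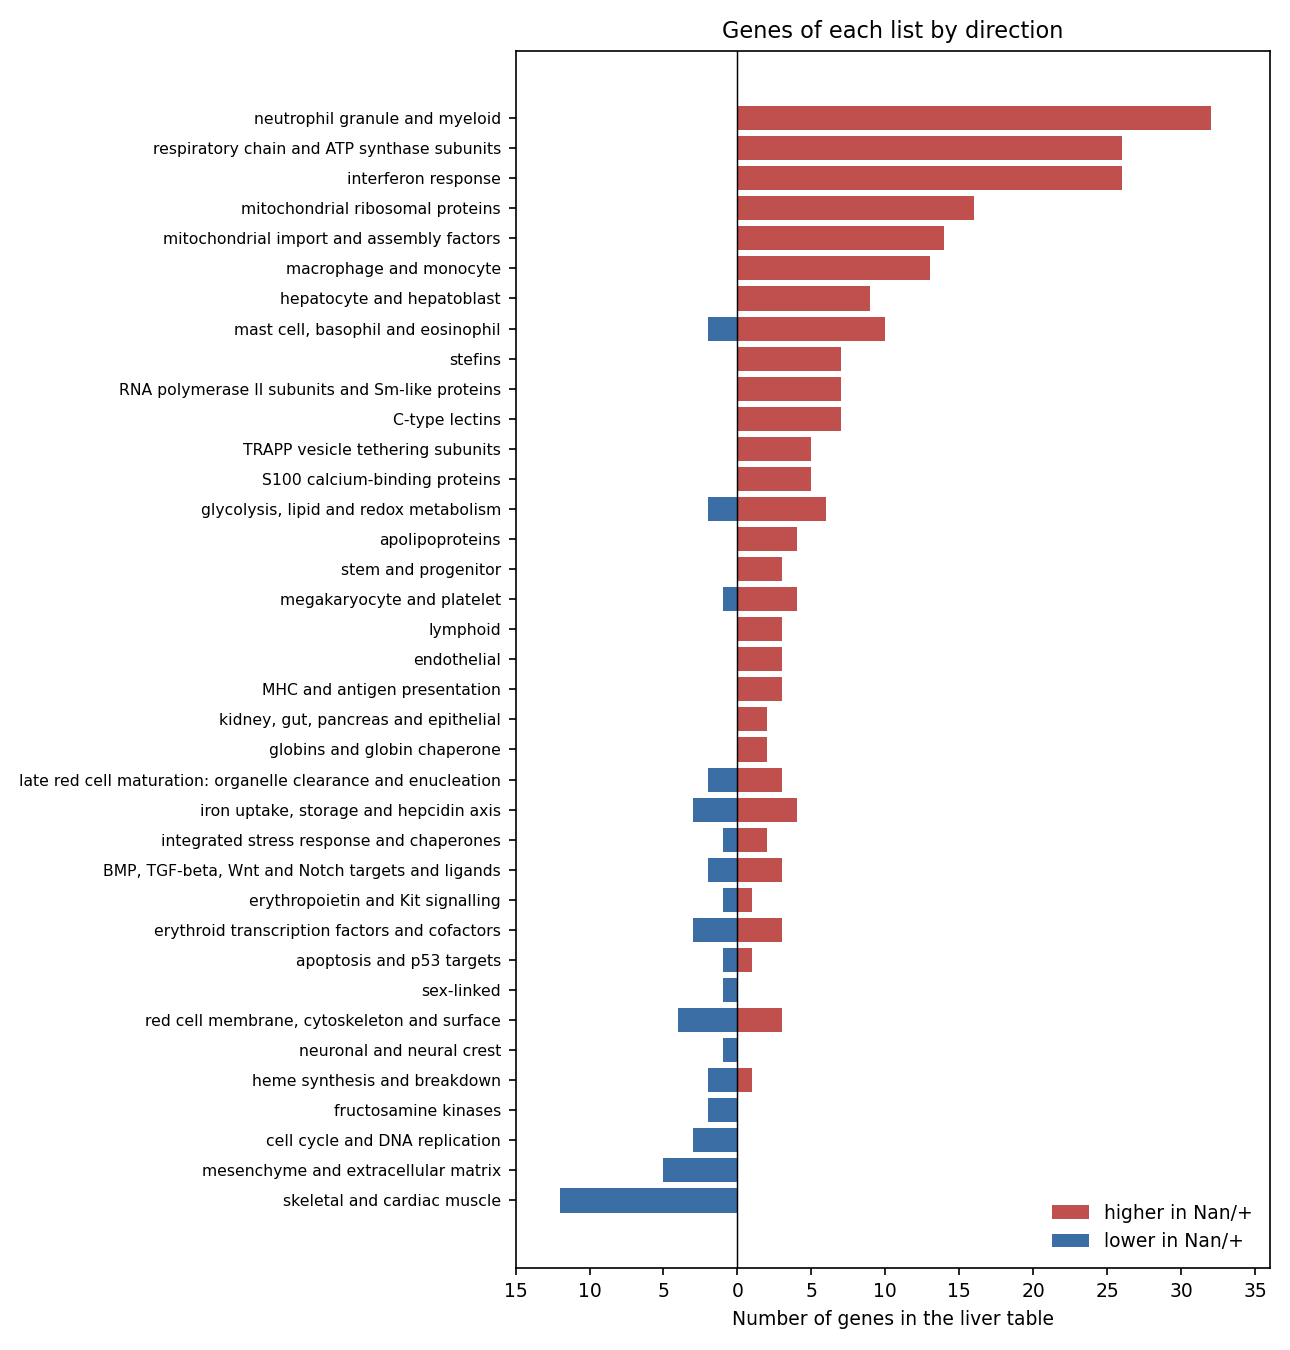
Each row is a gene list, with the number of called genes higher in Nan/+ to the right of 0 and lower to the left; lists overlap in a few genes. Granulocyte, interferon and respiratory chain genes extend furthest right (32, 26 and 26 genes) and muscle genes furthest left (12 genes). The mitochondrial, RNA polymerase, TRAPP, S100, stefin, C-type lectin, apolipoprotein and fructosamine kinase groups were picked by name after values were seen.

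Genes of small mitochondrial proteins rose together. These groups were picked from the table by name after its values were seen, so their counts describe them and support nothing further. All 26 called subunits of the respiratory chain and ATP synthase were higher, with a median log2 ratio of 1.33 and a summed level of 4044 to 11293 FPKM. Atp5k and Atp5e, small subunits of ATP synthase, rose from 509 to 1634 and from 342 to 1166 FPKM, Uqcr11 of complex III from 347 to 919 FPKM and Cox8a of complex IV from 309 to 772 FPKM. Cox6b2, a complex IV isoform known from testis, rose most, from 45.6 to 342 FPKM (2.91); without it the ratios of the group lay between 1.11 and 1.77. Mitochondrial ribosomal proteins gave 16 rises (median 1.21), for example Mrps12 from 48.2 to 133 FPKM and Mrpl52 from 136 to 335 FPKM. Import and assembly factors gave 14 (median 1.30), led by Timm13 from 64.8 to 196 FPKM. The 7 called subunits of RNA polymerase II and Sm-like proteins and the 5 called subunits of the TRAPP tethering complex rose as well. Median locus lengths in these 5 groups ran from 3414 to 5316 bp, all in the second bin of length, where 90.5% of genes were higher. How far length moved with these counts was not tested further.

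Muscle genes fell, most of them steeply. All 12 called genes of 91 skeletal and cardiac muscle markers were lower, with log2 ratios from -1.06 to -5.64 and a summed level of 62.3 FPKM in wild type and 5.64 FPKM in Nan/+. Their median locus length was 19964 bp, in the bin where 67.7% of genes were higher. Actc1, cardiac actin, fell from 21.5 to 1.08 FPKM, Acta1, skeletal actin, from 6.59 to 0.34 FPKM, and Myog, the factor myogenin, from 5 to 0.06 FPKM. Sln, sarcolipin, was at 2.91 FPKM in wild type and listed at 0 in Nan/+. Muscle is not a component of fetal liver, and the table does not show in how many of the 3 wild-type samples these genes were present. Mesenchyme genes moved with them: 5 of 75 were called, all lower, such as Ptn, pleiotrophin, from 30.7 to 9.16 FPKM and Igfbp5 from 26.3 to 6.17 FPKM. The median locus length of the mesenchyme genes was 95699 bp, in the bin where 46.5% of genes were higher. Gfap, a glial filament, fell from 9.52 to 2.37 FPKM. Xist, made from the inactive X chromosome of females, fell from 25.1 to 0.04 FPKM, so sex composition and genotype cannot be told apart for it. The same limit holds for every gene of the table, since sex composition may differ between the genotypes. The part of sex in the other genes was not tested. Without the muscle, mesenchyme, neuronal and sex-linked lists, an alternative chosen after seeing the data, 598 genes were higher and 176 lower (77.3% higher).

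Families named by symbol showed where direction was mixed. Solute carriers gave 7 rises and 8 falls, a lower share of rises than the 75.4% of the table, and included Slc30a1, a zinc exporter, up from 8.8 to 21.1 FPKM beside Slc30a10, a manganese exporter, down from 22.8 to 9.37 FPKM. The carnitine and ergothioneine carrier gene Slc22a4 and its neighbour Slc22a21 fell from 14.2 to 4.53 and from 1.09 to 0.24 FPKM. Zinc finger genes gave 1 rise, Zfp771 from 6.64 to 22.2 FPKM, and 4 falls. Small GTPases and their regulators gave 8 rises and 2 falls, with Rras2, a Ras family member, up from 11.5 to 36.7 FPKM and Rab43 down from 37.8 to 18.5 FPKM. Redox genes included Srxn1, sulfiredoxin, up from 12.3 to 32.9 FPKM and Gsta3, a glutathione transferase, up from 21.2 to 46.7 FPKM. Hspa1a and Hspa1b, near-identical genes of inducible Hsp70, rose from 0.22 to 2.79 and from 0.34 to 2.96 FPKM, while Chac1, a target of the integrated stress response, fell from 1.52 to 0.22 FPKM.

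Chemokines, interleukins and their receptors gave 10 rises and 2 falls, which are the Il4 and Il1rl1 given above. The chemokines Ccl3 and Ccl4, made by activated macrophages, rose from 0.57 to 2.52 and from 0.25 to 1.54 FPKM, and Cxcl1, which draws neutrophils, from 0.33 to 1.58 FPKM. Cxcr4, the receptor that retains blood progenitors in their niche, rose from 2.93 to 6.15 FPKM, and Il3ra, the interleukin 3 receptor chain, from 2.98 to 8.25 FPKM. All 7 called C-type lectins were higher, such as Clec4n, the fungal sensor dectin 2, from 5.41 to 21.8 FPKM. The C-type lectins and the S100 genes were grouped by name after their values were seen, so their counts support nothing further. The other S100 genes rose less than the calprotectin pair, S100a6 from 2.18 to 7.79 FPKM, S100a13 from 9.41 to 29.6 FPKM and S100a1 from 9.69 to 24 FPKM, and the loci of the last 2 lie 104 bp apart. Transcripts without a gene name gave 46 rises and 6 falls, with a median log2 ratio of 1.37 and a median locus length of 3808 bp, in the bin where 90.5% of genes were higher, led in level by 2010107E04Rik, from 377 to 888 FPKM.

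Neighbouring called genes were listed in pairs. Within 50 kb of each other lay 120 pairs of called genes, of which 94 were both higher, 9 both lower and 17 opposite. With 75.4% of all genes higher, pairs of higher genes are common in any arrangement, and many pairs are family clusters whose reads may be shared, so nothing is read from these counts. Pairs that rose include the gene families Prtn3 with Elane, Prg2 with Prg3, Ifitm1 with Ifitm3, and Ifi44 with Ifi44l. The 9 pairs that fell include Epb4.9 with Xpo7, Pklr with Hcn3, whose loci lie 180 bp apart, and Tspo2 with Unc5cl. Some opposite pairs were as close: Klhl30 rose and Fam132b, 4025 bp away, fell, and Atp5e rose beside Tubb1, which fell. Strand of counting is not stated, so reads of close or overlapping transcripts may not be separated. By chromosome, the share of genes higher ran from 50% on the X (8 of 16) to 91.7% on chromosome 19 (33 of 36). Around Klf1 itself, on chromosome 8, 2 called genes were within 5 Mb (Ndufb7 higher, Adcy7 lower) and 17 of the 37 on that chromosome within 20 Mb, 12 higher and 5 lower.

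The liver genes were next set beside newly made RNA of K1 cells, an immortalized erythroblast line that lacks KLF1. K1-ER and K1-NanER cells carry tamoxifen-inducible fusions of KLF1 or of Nan-KLF1 with the oestrogen receptor, and RNA was labelled with 4-thiouridine in 2 samples of each and of parental K1. Both comparisons share the K1 samples, so each is given on its own. Of the 793 liver genes, 102 (12.9%) are among the 1556 genes of the nascent RNA table, which make up 6.56% of it; they are 67 of the genes higher in Nan/+ (11.2%) and 35 of those lower (17.9%). A gene is called here at a q of at most 0.05 in the authors' deposited table. All 102 shared genes were called in K1-ER, in K1-NanER or in both. The nascent RNA table may therefore hold called genes only, like the liver table.

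Most of the shared genes that fell in Nan/+ liver were higher in K1-ER than in K1. In K1-ER, 25 of the 35 were called higher than K1 and 3 lower (Pdzd2, Fam53b and Crabp2). In K1-NanER, 11 were called higher and 5 lower. As a background, 37.9% of all genes of that table were called higher and 11.5% lower in K1-ER, and 47.4% higher and 28.3% lower in K1-NanER. Since every shared gene was called in K1-ER, in K1-NanER or in both, these may be shares of called genes, not of all expressed genes. Of the 67 liver genes that rose, 39 were called higher and 5 lower in K1-ER, and 22 higher and 22 lower in K1-NanER. The median nascent log2 fold change of the genes lower in liver was 1.54 in K1-ER and 0.40 in K1-NanER, and that of the genes higher in liver 1.19 and 0.84, beside 0.72 and 1.04 over the whole table. Among called genes, the share higher in K1-ER was 89.3% for the genes lower in liver and 88.6% for the genes higher in liver, against 76.7% over the whole table (3 of 28, 5 of 44 and 179 of 768 were lower). In K1-NanER these shares were 68.8%, 50% and 62.6%. and the difference between both lines was not tested.

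Single genes show these patterns. E2f2 nascent RNA was at 43.4 FPKM in K1, 151 in K1-ER (q = 0.00213 in the authors' deposited table) and 26 in K1-NanER (q = 0.173). Slc25a37 was at 14.3, 52.3 (q = 0.00213 in the authors' deposited table) and 21.5 FPKM (q = 0.34), and Ache at 24.3, 195 (q = 0.00213) and 27.5 FPKM (q = 0.869). For these 3 genes, lower in Nan/+ liver, K1-ER was called and K1-NanER was not. Epb4.9 was called in both, at 0.1, 8.54 and 3.47 FPKM (q = 0.00213 and 0.00213 in the authors' deposited table), and Sox6 likewise, at 2.31, 13.1 and 10.4 FPKM. The value of 0.1 FPKM stands for 0 in that table. Another set, higher in Nan/+ liver, was called in K1-NanER and not in K1-ER. Foxh1 was at 74.7 FPKM in K1, 101 in K1-ER (q = 0.523 in the authors' deposited table) and 236 in K1-NanER (q = 0.00213). Kifc2 was at 15.5, 25.4 (q = 0.224) and 131 FPKM (q = 0.00213) in the authors' deposited table, and Slc39a14 at 0.81, 1.03 (q = 1) and 3.51 FPKM (q = 0.0411). Insl6, Pdzk1ip1 and Hba-x were called higher in both lines. Several mitochondrial genes went the other way: Ndufb7, Ndufa13, Uqcr11, Timm13 and Mrps26, higher in Nan/+ liver, were called lower in K1-NanER, for example Timm13 at 43.7 FPKM in K1 and 16.2 in K1-NanER (q = 0.0358 in the authors' deposited table). Ndufb7, Srxn1 and Gsta3 were called lower in both lines.

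**Figure D5:**
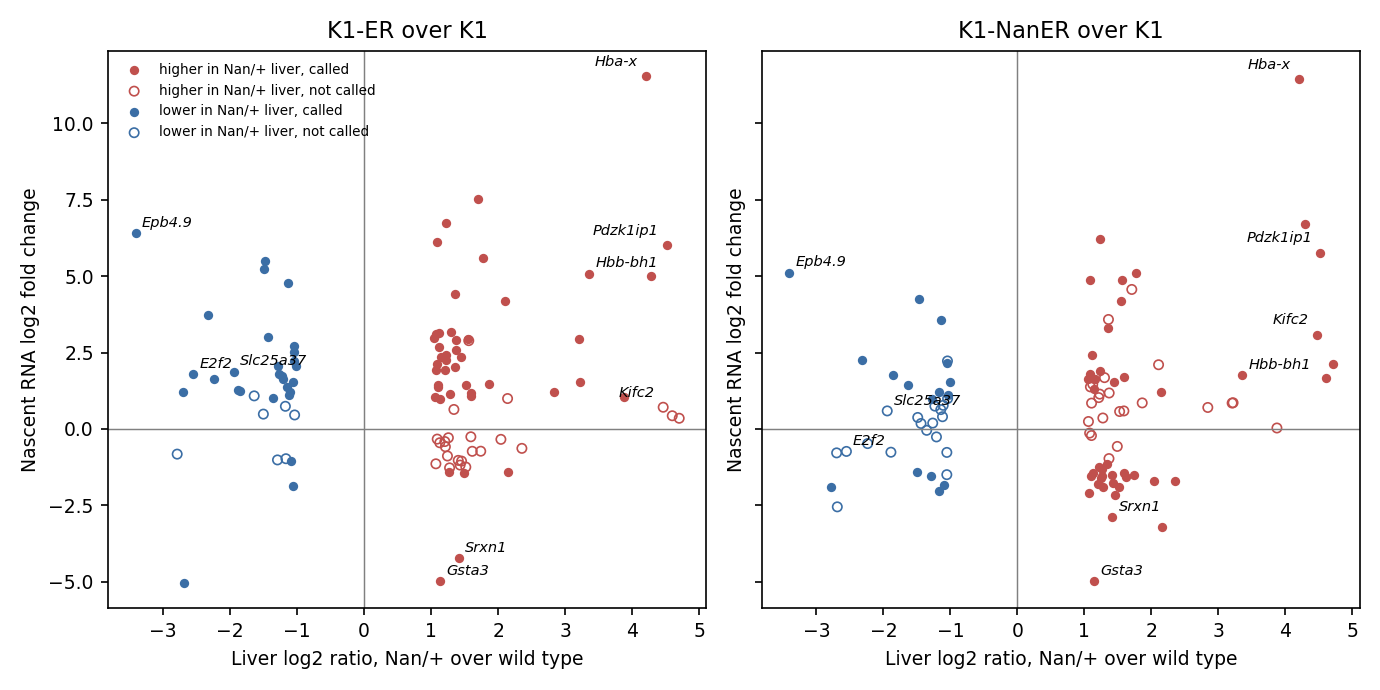
The 102 shared genes are plotted with the liver log2 ratio on the x axis and the nascent log2 fold change over K1 on the y axis, K1-ER left and K1-NanER right; filled points were called at a q of at most 0.05. Of the 35 genes left of 0, 25 are called above 0 in K1-ER and 11 in K1-NanER, and of the 67 right of 0 equal numbers (22 and 22) are called above and below 0 in K1-NanER.

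Binding was read from the peak lists of K1-ER and K1-NanER cells, each from 1 ChIP library of 3 pooled replicates, with the authors' gene name per peak. The KLF1 list held 5326 peaks and the Nan-KLF1 list 2758. A KLF1 peak was named for 127 of the 598 genes higher in Nan/+, 21.2% (95% Wilson interval 18.1% to 24.7%), and for 71 of the 195 genes lower, 36.4% (30.0% to 43.4%). These intervals, which cover counting error only, do not overlap. For promoter peaks alone the shares were 8.19% (6.25% to 10.7%) and 14.4% (10.1% to 19.97%), and those intervals overlap. A Nan-KLF1 peak was named for 96 genes higher in Nan/+, 16.1% (13.3% to 19.2%), and for 27 genes lower, 13.8% (9.69% to 19.4%), where the intervals overlap. KLF1 peaks without a Nan-KLF1 peak stood at 10.7% of the genes higher and 26.2% of the genes lower.

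These shares moved with locus length. Among loci shorter than the median of 10147 bp, 19.2% of the genes higher and 28.6% of the genes lower had a KLF1 peak (intervals 15.4% to 23.6% and 17.2% to 43.6%, which overlap). Among longer loci the shares were 24.3% and 38.6% (19.3% to 30.0% and 31.2% to 46.5%, which do not overlap). Nan-KLF1 shares were 13.2% and 4.76% in shorter loci, the latter from 2 of 42 genes, and 20.2% and 16.3% in longer loci. As examples from the lists, 4 of the 7 membrane genes, 4 of the 6 erythroid transcription factors and cofactors, and 3 of the 32 granulocyte genes had a KLF1 peak. The background is 21.2% of all genes higher and 36.4% of all genes lower. Median locus lengths of these lists were 12257, 48929 and 5412 bp, and the part of length was not tested. In the first 2 lists genes with a peak include rises, such as Epb4.1l1 and Cbfa2t3, and falls, such as Epb4.9 and Sox6.

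For genes higher in Nan/+ the sequences at 3 promoter peaks are shown: Ass1, the steepest rise with a KLF1 promoter peak and a matched motif, and Zfp771 and Grap2, the 2 steepest with a Nan-KLF1 one. Zfp771 encodes a zinc finger protein and Grap2 an adaptor of blood cell receptors, which rose from 19.1 to 57.5 FPKM. Nascent RNA of Zfp771 was called lower in K1-NanER than in K1, opposite to liver. It was at 36.9 FPKM in K1 and 13.1 in K1-NanER (q = 0.0116 in the authors' deposited table). Grap2 was called higher than K1 in both lines. The letters are from RefSeq (GRCm38.p6) with the authors' central motif in capitals, Ass1 at chr2:31470032-31470119 on the plus strand, Zfp771 at chr7:127244374-127244461 on the plus strand and Grap2 at chr15:80623385-80623472 on the plus strand.
Ass1: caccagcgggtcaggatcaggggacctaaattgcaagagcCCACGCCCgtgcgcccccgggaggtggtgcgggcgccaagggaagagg
Zfp771: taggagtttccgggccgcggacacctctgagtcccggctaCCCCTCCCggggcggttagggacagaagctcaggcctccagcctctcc
Grap2: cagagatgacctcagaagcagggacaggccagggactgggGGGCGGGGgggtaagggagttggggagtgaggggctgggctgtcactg
The Ass1 motif starts 198 bp, that of Zfp771 112 bp and that of Grap2 58 bp before the gene start. At the Grap2 promoter the KLF1 peak and the Nan-KLF1 peak have the same central motif. The fold enrichment over input comes from 1 library per factor and describes a peak within its own list. Its median was 75.6 in the KLF1 list and 107 in the Nan-KLF1 list, so values are not compared between the factors. These promoter peaks had 75.0 in the KLF1 list and 330.1 in the Nan-KLF1 list. A distal site of Grap2 in both lists had 327.9 in the KLF1 list and 86.9 in the Nan-KLF1 list. Another distal peak, at 78.9, was in the KLF1 list alone.

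Over promoters, a CACCC-type pattern (CCNCNCCC, on either strand, which GC boxes also match) was found in 75.5% of 151 genes lower in Nan/+ and 63.5% of 479 genes higher, against 49.1% of all 27025 promoters. The pattern CCNNGCCC, which overlaps it, was in 60.3% and 57.8%, against 40.4%. The GATA pattern AGATAA was in 11.3% and 9.0%, against 11.4%. A match describes letters in the 300 bases and is not a bound site.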

How the data were processed

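Per the labels' protocols, RNA of dispersed fetal livers was depleted of globin RNA with GLOBINclear and made into TruSeq stranded libraries of polyadenylated RNA. Build mm9 and the tools MACS 1.4.2 and TopHat2 2.0.10 appear in the submitters' processing notes, without their roles. The program behind the levels and q values is not given in the sources used here. The authors deposited FPKM as 1 value per group, with a log2 fold change, p-value and q value per gene, for liver and for nascent RNA. For ChIP-seq they deposited peak lists with a fold enrichment over input and a rank score per peak, of which the score was used only to read the list. Depth is unknown.

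The log2 ratio was recomputed from the FPKM columns, and it differed from the deposited one by at most 0.0662. All 793 rows were used, without a filter. No model was fitted. Lists were described by counts and medians, shares by 95% Wilson intervals, and the calculation was tested on simulated data. Python 3.11.15, pandas 2.3.3, NumPy 2.4.6, SciPy 1.17.1 and matplotlib 3.10.9 were used. Of the 793 genes, 787 matched a RefSeq gene and 630 had a promoter sequence (250 bases before to 50 after the start).

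The members, lists and patterns were chosen with earlier results of these data known. Genes were named by this rule: Klf1, the 12 highest and 12 lowest ratios, the 8 highest levels per direction, genes listed at 0, up to 4 genes per list and direction by FPKM difference, neighbours within 50 kb, and the largest liver ratios per class of nascent RNA or peak. Others, among them further members of the interferon, granulocyte and basophil lists, March8, Ache, Mvp, Rras2, Slc30a1 and Zfp771, were chosen after their values were seen. A few results are not reported here. Alternatives were other floors for low FPKM (0.01 and 1), the deposited fold change, a minimum of 1 FPKM, a q of at most 0.01, peaks within 10 kb of a locus, and the upper part of each peak list.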

Additional observations from a re-analysis of the deposited data

How the results depend on the processing

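The counts of 598 higher and 195 lower genes could not change with another floor for low FPKM (0.01 or 1), with the deposited fold change or with a minimum of 1 FPKM, since the lowest level in the higher genotype was 1.01 FPKM and these choices alter no direction. At a q of at most 0.01 in the authors' deposited table, 280 genes were higher and 97 lower, and the median log2 ratio of all genes was 1.55. With any peak within 10 kb of the locus, 30.4% of genes higher in Nan/+ had a KLF1 peak and 22.1% a Nan-KLF1 peak. With the upper part of each list by fold enrichment these shares were 11.7% and 10.4%, and 17.1% had either; of the genes lower in Nan/+, 25.1% had a KLF1 peak and 28.2% either. The liver genes called in nascent RNA of K1-NanER numbered 36 at a q of at most 0.01, against 60. These shifts follow from fewer genes or from more or fewer peaks counted. Without the granulocyte, macrophage and mast cell lists, an alternative chosen after seeing the data, 73.8% of genes were higher. No paired analysis was possible because the deposited table gives 1 value per group and no value per sample; leaving out a replicate could not be run for the same reason.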
